A study of Mus musculus with 9 samples.

Results

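The genes described here are 8 genes of early neural stem cell timing that belong to the let-7 network: Lin28a, Lin28b, Hmga1, Hmga2, Igf2bp1, Igf2bp2, Igf2bp3 and Trim71. They were chosen by symbol, and all 8 were found among the 53379 genes of the deposited count table. A count above 0 was present for 7 of them, and 6 passed the filter on low counts that left 17760 genes for testing (Lin28a and Trim71 did not). RNA was sequenced from GFP+ cells of the cortex of C57BL/6 mouse embryos at E15.5. Every embryo had been electroporated in utero at E13.5, and the fluorescent cells were isolated by FACS, so all groups share the electroporation, the GFP reporter and the sort. One group received a mix of 3 shRNAs against circSlc45a4, a circular RNA of the Slc45a4 gene (circ-KD cells). Another received a mix of 2 shRNAs against the linear mRNA of that gene (mRNA-KD cells). The controls received 1 scrambled sequence (scramble). Each group held 3 libraries, which the study calls biological replicates, and the shRNAs of a group were given as a mix, so no effect can be tied to 1 shRNA.

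Lin28a and Lin28b encode RNA-binding proteins that block the maturation of let-7 microRNAs, and let-7 in turn represses the messages of Lin28, Hmga2, the Igf2bp family and Trim71. In the developing cortex this circuit is known to move with age: young neural stem cells hold much Lin28, Hmga2 and Igf2bp, while mature let-7 accumulates in older ones. Hmga1 and Hmga2 are AT-hook proteins that bind the minor groove of DNA and alter chromatin, Igf2bp1, Igf2bp2 and Igf2bp3 bind messenger RNAs (among them that of Igf2) and affect their stability and translation, and Trim71, the mammalian lin-41, is an RNA-binding repressor of the TRIM-NHL family.

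The link between these genes lies in the letters of their 3′ UTRs. The microRNAs are shown because the sites below pair with their seeds, here in capitals (bases 2 to 8, counted from the 5′ end). RefSeq (GRCm38.p6) lists 9 mature let-7 and miR-98 names with the seed GAGGUAG, of which 3 are printed with miR-125b, a second microRNA family with sites in Lin28. MicroRNA levels were not measured in these polyA libraries.
mmu-let-7a-5p: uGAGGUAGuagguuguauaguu
mmu-let-7b-5p: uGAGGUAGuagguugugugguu
mmu-let-7i-5p: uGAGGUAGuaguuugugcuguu
mmu-miR-125b-5p: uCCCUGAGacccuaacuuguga

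One let-7 site of each gene follows, 22 bases of the sense strand of the GENCODE M21 3′ UTR on GRCm38. Capitals mark the 7 bases CTACCTC that are complementary to the seed, with the A that extends the match to 8 bases where it is present.
Lin28a, chr4:134005189-134005210, minus strand: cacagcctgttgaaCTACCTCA
Lin28b, chr10:45381022-45381043, minus strand: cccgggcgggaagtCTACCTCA
Hmga1, chr17:27563278-27563299, plus strand: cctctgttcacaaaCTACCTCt
Hmga2, chr10:120364224-120364245, minus strand: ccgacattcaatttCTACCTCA
Igf2bp1, chr11:95961778-95961799, minus strand: ctgtgcgaagtaaaCTACCTCA
Igf2bp2, chr16:22059473-22059494, minus strand: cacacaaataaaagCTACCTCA
Igf2bp3, chr6:49086787-49086808, minus strand: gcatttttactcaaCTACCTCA
Trim71, chr9:114512472-114512493, minus strand: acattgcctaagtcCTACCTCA

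All 8 genes held the CTACCTC site at least once and 5 held it more than once, with 4 sites each in Lin28b, Hmga2, Igf2bp1 and Trim71, 2 in Lin28a and 1 in Hmga1, Igf2bp2 and Igf2bp3. Of 21021 protein-coding genes with an annotated 3′ UTR, 9.02% held it, as did 30.6% of the 1455 genes with a 3′ UTR of at least 4000 bases. The density was 0.773 sites per kilobase in the 8 genes and 0.07 in all genes. Since the genes were listed for their place in the let-7 network, these shares describe the list and test nothing. The 7 bases CTCAGGG, complementary to the miR-125 seed, stood once in Lin28a, Lin28b, Igf2bp3 and Trim71 and in 13.1% of all genes. Only the sense strand of each 3′ UTR was searched, the patterns CTACCTC and CTCAGGG do not overlap, and a match is a run of letters, not a measured binding site.

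Total counts were 36883510 to 45469298 in circ-KD cells, 35307378 to 37051161 in mRNA-KD cells and 21073174 to 31833779 in scramble, where replicate 1 was the shallowest. The targeted Slc45a4 mRNA (chr15:73577424-73645762, minus strand) averaged 16.4 ± 2.77 CPM in mRNA-KD cells and 33.0 ± 1.41 CPM in scramble (mean ± SD, n = 3 each; log2 fold change -1.01 ± 0.12, SE, adjusted p = 0.000108). In circ-KD cells it stood at 25.1 ± 0.38 CPM (-0.39 ± 0.12, adjusted p = 0.0245), a call that ended when any circ-KD library, scramble replicate 2 or scramble replicate 3 was left out or Xist was a covariate (-0.40 to -0.23, adjusted p 0.0659 to 0.584). PolyA selection does not retain circular RNA, so circSlc45a4 has no value here. Throughout, CPM is a count divided by the TMM-scaled total of its library in units of 1e6 counts, p-values are from the quasi-likelihood F test of edgeR with Benjamini-Hochberg adjustment over all 17760 genes, and a call is an adjusted p under 0.05. Libraries also differed in transcripts tied to the sex of the embryos. Xist, transcribed from the inactive X chromosome, was read at 264.5 to 635.2 CPM in circ-KD cells and at 1550, 636.6 and 0.194 CPM in mRNA-KD cells, against 0.0617 to 0.239 CPM in scramble. Ddx3y, a gene of the Y chromosome, was read at 20, 37.1 and 28.5 CPM in circ-KD cells and at 0, 21.9 and 39.1 CPM in mRNA-KD cells, against 41.6, 38 and 28.3 CPM in scramble. Every circ-KD library thus held both transcripts, every scramble library held Ddx3y with Xist near 0, and mRNA-KD replicate 1 alone lacked Ddx3y. Between circ-KD cells and scramble, the Xist level and treatment cannot be told apart from these libraries alone.

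Levels per length of merged exon (RPKM, reads per kilobase of exon, scaled like CPM) allow the genes to be ranked. Hmga1 was the highest in every group, at 33.2 RPKM (range 31.6 to 35.7) in circ-KD cells, 61.3 (57.0 to 64.5) in mRNA-KD cells and 49.8 (43.0 to 54.2) in scramble. The Igf2bp genes came next. Igf2bp2 averaged 13.3, 8.87 and 17.2 RPKM in circ-KD cells, mRNA-KD cells and scramble, Igf2bp3 averaged 11.5, 9.48 and 13.2 RPKM, and Igf2bp1 averaged 9.03, 7.23 and 6.78 RPKM in the same groups. Hmga2 followed at 6.37, 1.97 and 4.18 RPKM, and Lin28b was far below all of them at 0.0714, 0.081 and 0.146 RPKM. Neighbours in this order did not all differ beyond their range: Igf2bp2 and Igf2bp3 overlapped in mRNA-KD cells (7.94 to 9.48 and 8.33 to 11.0 RPKM), as did Igf2bp2 and Igf2bp1 there (7.94 to 9.48 and 6.59 to 8.27 RPKM).

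**Figure D1:**
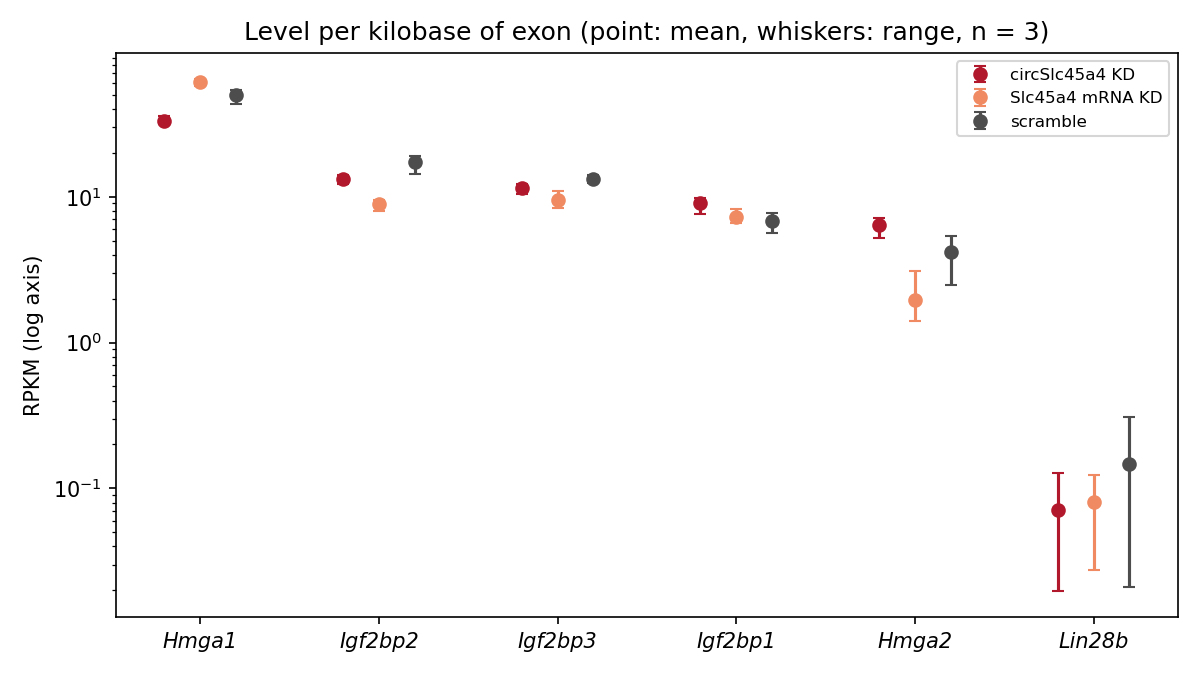
Level per kilobase of exon (RPKM, log axis) of the 6 tested genes, ordered by level, for circ-KD cells, mRNA-KD cells and scramble; points are means and whiskers the range of 3 libraries. Hmga1 lies highest in every group and Lin28b lies below 1 RPKM in every library.

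Of the let-7 blockers, Lin28a was not detected and Lin28b was low. Lin28a (ENSMUSG00000050966.9, chr4:134003330-134018841, minus strand) had 0 counts in all 9 libraries, where a count of 0 allows up to 3 counts, or 0.0671 CPM at the largest library and 0.143 CPM at the smallest. Lin28b (ENSMUSG00000063804.8, chr10:45376620-45486395, minus strand) had 52, 22 and 8 counts in circ-KD cells and 40, 31 and 9 counts in mRNA-KD cells, against 4, 30 and 91 counts in scramble. The libraries of each group spread so widely that all groups overlapped. Scaled for depth, the highest value was that of scramble replicate 3 (2.81 CPM) and the lowest were those of circ-KD replicate 3 (0.179 CPM) and scramble replicate 1 (0.191 CPM). Lin28b averaged 0.648 ± 0.494, 0.734 ± 0.442 and 1.32 ± 1.34 in circ-KD cells, mRNA-KD cells and scramble. No comparison was called (adjusted p = 0.346 for circ-KD cells and 0.474 for mRNA-KD cells against scramble, and 0.901 for the direct comparison). The sign itself rested on single libraries, since the log2 fold change of -1.06 ± 0.78 for circ-KD cells became 0.10 and that of -0.88 ± 0.78 for mRNA-KD cells became 0.27 without scramble replicate 3.

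Trim71 (ENSMUSG00000079259.2, chr9:114507133-114564369, minus strand) had 0, 0 and 0 counts in circ-KD cells and 2, 3 and 0 counts in mRNA-KD cells, against 1, 6 and 8 counts in scramble. Every library with more than 3 counts was a scramble library. Trim71 did not pass the filter on low counts and so was not tested. In the alternative fit without a filter it was called lower in circ-KD cells than in scramble (adjusted p = 0.0301), and it did not pass the threshold in mRNA-KD cells against scramble (0.562) or between the knockdowns (0.204). That fit gave far smaller adjusted p at like fold changes. For Hmga2 between the knockdowns it gave 6.66e-39 (log2 fold change 1.70), against 0.00134 (1.69) with the filter. Its call of Trim71, on 0 to 8 counts, thus carries little weight. Lin28a and Trim71 share exonic bases with a gene on the other strand (234 with Gm13061 and 135 with C130032M10Rik), as do Hmga1 (102 with AI413582), Hmga2 (140 with 1700006J14Rik) and Igf2bp1 (43 with Gm29202), and the strand setting of the counting is not given in the sources used here.

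Hmga2 showed the largest fold difference between the knockdowns of the 6 tested genes. It is the AT-hook protein known from mouse work to sustain self-renewal of young neural stem cells, and its 3′ UTR holds 4 of the let-7 sites described above. Hmga2 (ENSMUSG00000056758.14, chr10:120361275-120476469, minus strand) stood at 48.4, 46.1 and 35.0 CPM in circ-KD cells and at 20.8, 9.52 and 9.75 CPM in mRNA-KD cells, against 16.7, 31.8 and 36.3 CPM in scramble. Both knockdowns overlapped with scramble, in which replicate 1 was low, but not with each other. Between the knockdowns it was 3.23-fold higher in circ-KD cells (log2 fold change 1.69 ± 0.30, adjusted p = 0.00134), and this call held in all 18 alternative fits, with log2 fold changes of 1.5 to 2.16.

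Against scramble, the Hmga2 level of mRNA-KD cells, 13.4 ± 6.46 CPM, fell below 28.3 ± 10.2 CPM in scramble (log2 fold change -1.09 ± 0.30, adjusted p = 0.0244), a 2.13-fold difference. The call ended in 5 of 18 alternatives (adjusted p 0.0853 to 0.0939): with Xist as a covariate (-1.57) and without mRNA-KD replicate 2 (-0.90) or 3 (-0.91) or scramble replicate 2 (-1.0) or 3 (-0.87). In circ-KD cells the level of 43.1 ± 7.15 CPM did not pass the threshold against scramble (0.60 ± 0.29, adjusted p = 0.149). That estimate was 0.34 without scramble replicate 1 and 0.02 with Xist as a covariate, and it was called in 2 alternatives, no filter on low counts (adjusted p = 1.44e-05) and without mRNA-KD replicate 1 (0.0457), with adjusted p of 1.44e-05 to 0.986 over all of them.

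Hmga1, the relative that shares the AT-hook design and is abundant in proliferating progenitors, moved the opposite way to Hmga2 between the knockdowns. Hmga1 (ENSMUSG00000046711.15, chr17:27556497-27563674, plus strand) stood at 68.5, 75.8 and 67.1 CPM in circ-KD cells and at 132.8, 137.1 and 121.1 CPM in mRNA-KD cells, against 91.5, 115.2 and 110.8 CPM in scramble. The 3 groups did not overlap: circ-KD cells were lowest and mRNA-KD cells highest. Hmga1 fell in circ-KD cells to 70.5 ± 4.68 CPM, against 105.8 ± 12.6 CPM in scramble (log2 fold change -0.59 ± 0.10, adjusted p = 0.000596). It rose in mRNA-KD cells to 130.3 ± 8.24 CPM (0.30 ± 0.10, adjusted p = 0.0444). Between the knockdowns the log2 fold change was -0.89 ± 0.10 (adjusted p = 3.83e-05), a level 1.85-fold lower in circ-KD cells.

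The fall of Hmga1 and the difference between the knockdowns were called in 18 of 18 alternatives each (-0.69 to -0.52 and -0.94 to -0.84). The rise in mRNA-KD cells was called in 8 of 18. It ended with only the 6 libraries of the comparison (adjusted p = 0.0708), with Xist as a covariate (0.22, 0.485) and without any 1 of the 9 libraries except mRNA-KD replicate 3 (log2 fold change 0.21 to 0.36, adjusted p 0.0506 to 0.162). The values are also uncertain because of a near copy, Hmga1b (chr11:120762794-120764419, plus strand), whose reads the counting could have split with Hmga1. The ratio of Hmga1b to Hmga1 counts was 0.709 to 0.741 in all 9 libraries, and Hmga1b showed log2 fold changes of -0.63 ± 0.10 (adjusted p = 0.000344), 0.27 ± 0.09 (0.0672) and -0.90 ± 0.10 (3.41e-05) in the same order. Markers of cells in G2 and M phase differed between the knockdowns in the same direction as Hmga1: their sum over 10 genes was 629 to 762.9 CPM in circ-KD cells and 1088 to 1629 CPM in mRNA-KD cells, against 643.8 to 1195 CPM in scramble. Of those 10 genes, 8 were lower in circ-KD cells than in mRNA-KD cells and none was higher (80% called, beside 26.1% of all genes). Against scramble none of the 10 was called in circ-KD cells, where 27.1% of all genes were. In mRNA-KD cells 2 of the 10 were higher than in scramble and none lower (20%, beside 18.0%). Their part in the Hmga1 difference was not tested, and in bulk RNA fewer cells of a type and less RNA per cell cannot be told apart.

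**Figure D2:**
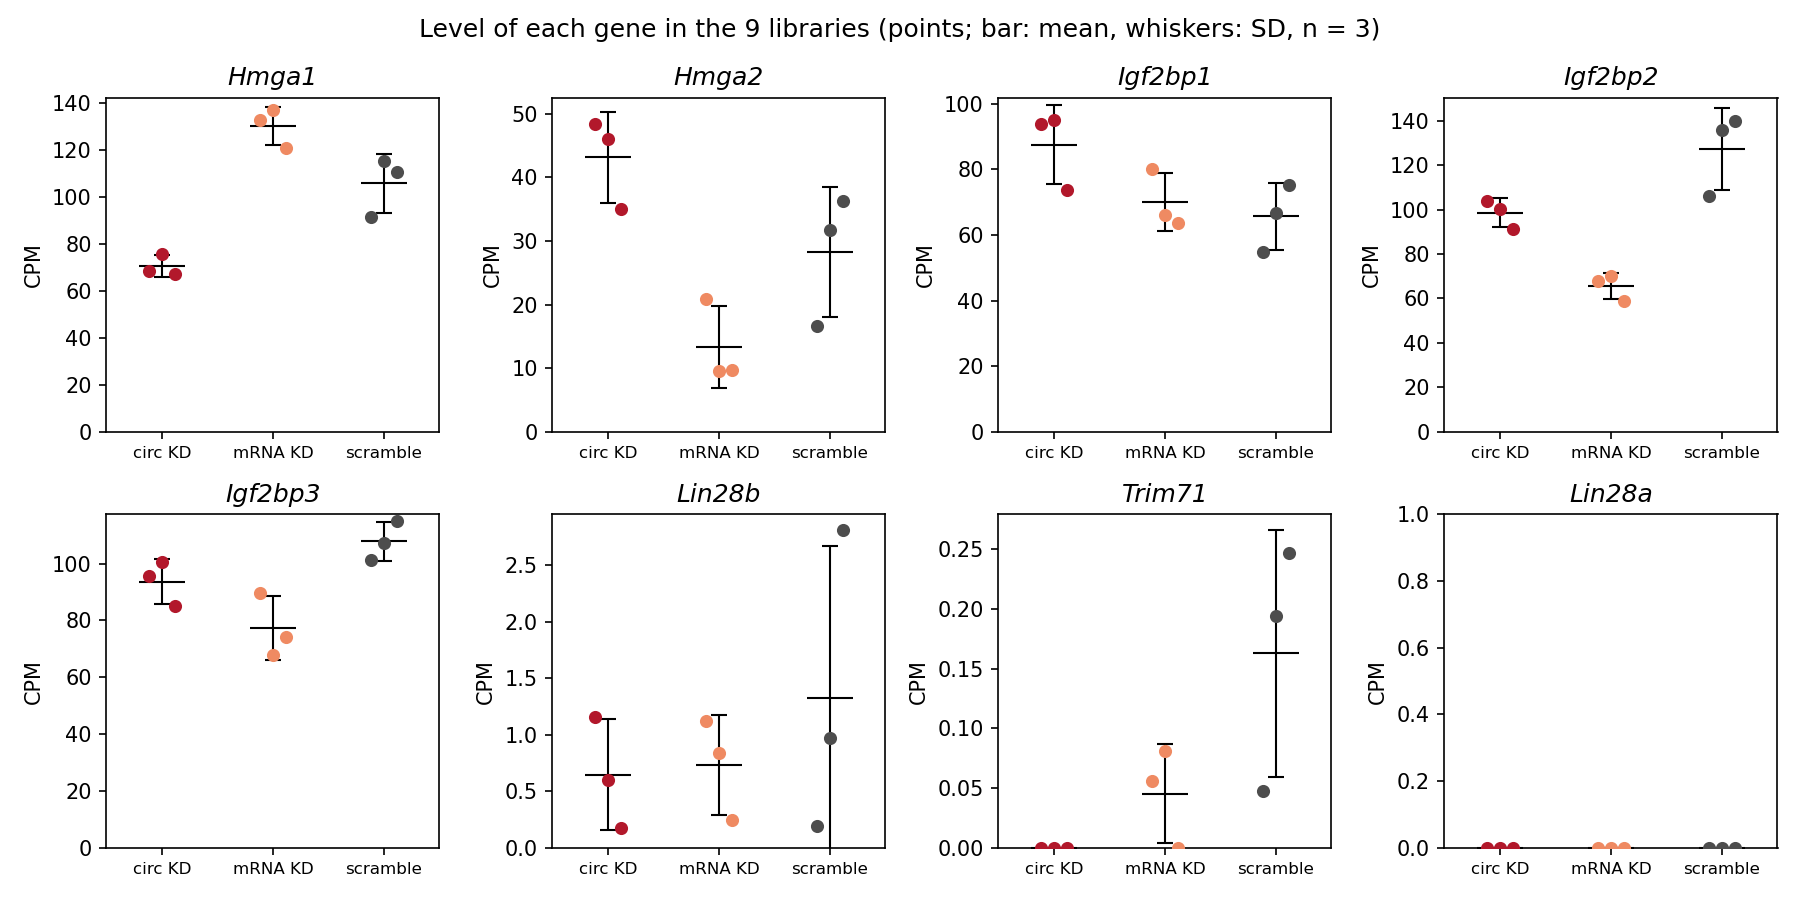
Level (CPM) of each of the 8 genes in the 9 libraries, circ-KD, mRNA-KD and scramble from left to right, with the mean (bar) and SD (whiskers, n = 3; the lower Lin28b whisker in scramble is clipped at 0). Hmga1 separates into 3 groups, Hmga2 separates the knockdowns from each other, Igf2bp2 lies lowest in mRNA-KD cells, and Lin28a has 0 counts in all libraries.

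The calls of the 3 Igf2bp genes against scramble differed in direction. Igf2bp1, known from mouse studies to keep fetal neural stem cells from differentiating early, was higher in circ-KD cells. Igf2bp2 was lower in both knockdowns, and Igf2bp3 was lower in mRNA-KD cells. In circ-KD cells against mRNA-KD cells the log2 fold changes of all 3 were positive (0.32, 0.59 and 0.28), with Igf2bp2 called. Whether the genes differed from each other in their response was not tested.

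Igf2bp2 (ENSMUSG00000033581.16, chr16:22059009-22163299, minus strand), which in mouse cortex is known as a factor of neural precursors and in muscle precursors lies downstream of Hmga2, stood at 103.9, 100.5 and 91.4 CPM in circ-KD cells and at 67.9, 70.2 and 58.8 CPM in mRNA-KD cells, against 106.3, 136.1 and 140.1 CPM in scramble. Each knockdown lay below all scramble libraries, by a narrow gap in circ-KD cells, and mRNA-KD cells lay lowest. In mRNA-KD cells the mean fell to 65.7 ± 6.04 CPM, against 127.5 ± 18.5 CPM in scramble (log2 fold change -0.96 ± 0.11, adjusted p = 7.77e-05), and the call held in 18 of 18 alternatives (-1.10 to -0.89). With Xist as a covariate the log2 fold change in mRNA-KD cells was -1.10 (adjusted p = 0.00375). Only 1 mRNA-KD library, replicate 3, had an Xist level like that of scramble, and the part of the sex of the embryos was not tested beyond that fit.

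In circ-KD cells Igf2bp2 fell to 98.6 ± 6.49 CPM (-0.37 ± 0.11, adjusted p = 0.0207). This call ended in 5 of 18 alternatives (adjusted p 0.052 to 0.108): with Xist as a covariate (-0.55) and without circ-KD replicate 2 (-0.39) or 3 (-0.32) or scramble replicate 2 (-0.32) or 3 (-0.30). Igf2bp2 was 1.5-fold higher in circ-KD cells than in mRNA-KD cells (0.59 ± 0.11, adjusted p = 0.00168), and this held in 18 of 18 alternatives (0.52 to 0.64).

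Igf2bp3 (ENSMUSG00000029814.10, chr6:49085223-49214957, minus strand), an oncofetal member of the family, stood at 95.5, 100.4 and 84.9 CPM in circ-KD cells and at 89.8, 68.0 and 74.2 CPM in mRNA-KD cells, against 101.2, 107.4 and 114.9 CPM in scramble. No library of either knockdown reached the lowest scramble value. The level fell to 77.3 ± 11.2 CPM in mRNA-KD cells, against 107.9 ± 6.85 CPM in scramble (log2 fold change -0.48 ± 0.10, adjusted p = 0.00673). That call ended with Xist as a covariate (-0.55, adjusted p = 0.0879) and held in the other 17 alternatives, over which the adjusted p reached down to 1.69e-05. In circ-KD cells, at 93.6 ± 7.95 CPM, it did not pass the threshold (-0.21 ± 0.10, adjusted p = 0.167), nor did the difference between the knockdowns (0.28 ± 0.10, adjusted p = 0.0693, called in 4 of 18 alternatives). Igf2bp3 shares 1529 exonic bases with Malsu1 on the other strand, which stood at 10.2 to 13.9 CPM and had adjusted p of 0.289, 0.57 and 0.715 in the 3 comparisons.

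Igf2bp1 (ENSMUSG00000013415.9, chr11:95957163-96005940, minus strand) stood at 93.9, 95.0 and 73.6 CPM in circ-KD cells and at 80.1, 66.2 and 63.8 CPM in mRNA-KD cells, against 54.9, 66.8 and 75.3 CPM in scramble. Circ-KD replicates 1 and 2 were the highest of all libraries, and replicate 3 lay within the range of scramble. The mean rose to 87.5 ± 12.1 CPM in circ-KD cells, against 65.7 ± 10.2 CPM in scramble (log2 fold change 0.41 ± 0.13, adjusted p = 0.0328). The call ended in 7 of 18 alternatives: with upper-quartile factors (0.36, adjusted p = 0.0594), with the replicate block (0.40, 0.0659), with Xist as a covariate (0.25, 0.577) and without circ-KD replicate 1 (0.35, 0.114) or 2 (0.35, 0.121) or scramble replicate 1 (0.30, 0.121) or 2 (0.43, 0.0816). Over all 18 the adjusted p was 0.000511 to 0.577. In mRNA-KD cells Igf2bp1 averaged 70.0 ± 8.81 CPM (log2 fold change 0.09 ± 0.13, adjusted p = 0.682), and the sign turned without mRNA-KD replicate 1 (-0.01) or scramble replicate 1 (-0.02) and with Xist as a covariate (-0.04). Set directly against each other, the knockdowns gave 0.32 ± 0.13 (adjusted p = 0.0873), called in 3 of 18 alternatives.

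The ratios of Igf2bp1 to Igf2bp2 and of Igf2bp1 to Igf2bp3 lay apart from scramble in both knockdowns. The ratio of Igf2bp2 to Igf2bp3 was not formed. All ratios given here were formed after the values had been seen and are given without a test. The level of Igf2bp1 over that of Igf2bp2, per length, was 0.691, 0.723 and 0.616 in circ-KD cells and 0.901, 0.72 and 0.829 in mRNA-KD cells, against 0.395, 0.375 and 0.411 in scramble. A ratio taken within a library does not depend on how libraries are scaled. The level of Igf2bp1 over that of Igf2bp3 was 0.73 to 0.829 in circ-KD cells and 0.724 to 0.82 in mRNA-KD cells, against 0.457 to 0.552 in scramble. For the Hmga pair, Hmga2 over Hmga1 was 0.221, 0.191 and 0.164 in circ-KD cells and 0.0492, 0.0218 and 0.0253 in mRNA-KD cells, against 0.0574, 0.0866 and 0.103 in scramble. In this ratio the knockdowns lay on opposite sides of scramble, with no overlap.

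Of the 6 tested genes, 3 were called in circ-KD cells against scramble (1 higher, 2 lower), where 27.1% of all genes were called (14.1% higher, 13.0% lower). In mRNA-KD cells against scramble 4 were called (1 higher, 3 lower), where 18.0% of all genes were called (8.92% higher, 9.09% lower). In the direct comparison of the knockdowns 3 were called (2 higher and 1 lower in circ-KD cells), where 26.1% of all genes were called (13.8% higher, 12.3% lower). Of all calls, 52.1% were higher in circ-KD cells against scramble, 49.5% in mRNA-KD cells against scramble and 52.8% in the direct comparison. With upper-quartile factors the share was 42.3% in circ-KD cells against scramble and 42.1% in the direct comparison, and with Xist as a covariate it was 65.8% in circ-KD cells and 61.6% in mRNA-KD cells against scramble. The median log2 fold change of the 6 genes was -0.29, -0.68 and 0.30 in these comparisons, beside -0.01, 0.01 and -0.02 over all genes tested. The comparisons with scramble share the same 3 scramble libraries. The groups did not overlap for 3 of the 6 genes in circ-KD cells against scramble (0 higher, 3 lower), where this held for 43.9% of all genes (22.6% higher, 21.3% lower). It held for 3 in mRNA-KD cells against scramble (1 higher, 2 lower; 36.1% of all genes, 17.7% higher and 18.4% lower) and for 3 in the direct comparison (2 higher, 1 lower; 40.1% of all genes, 20.3% higher and 19.8% lower). The called genes did not share 1 direction in any comparison.

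**Figure D3:**
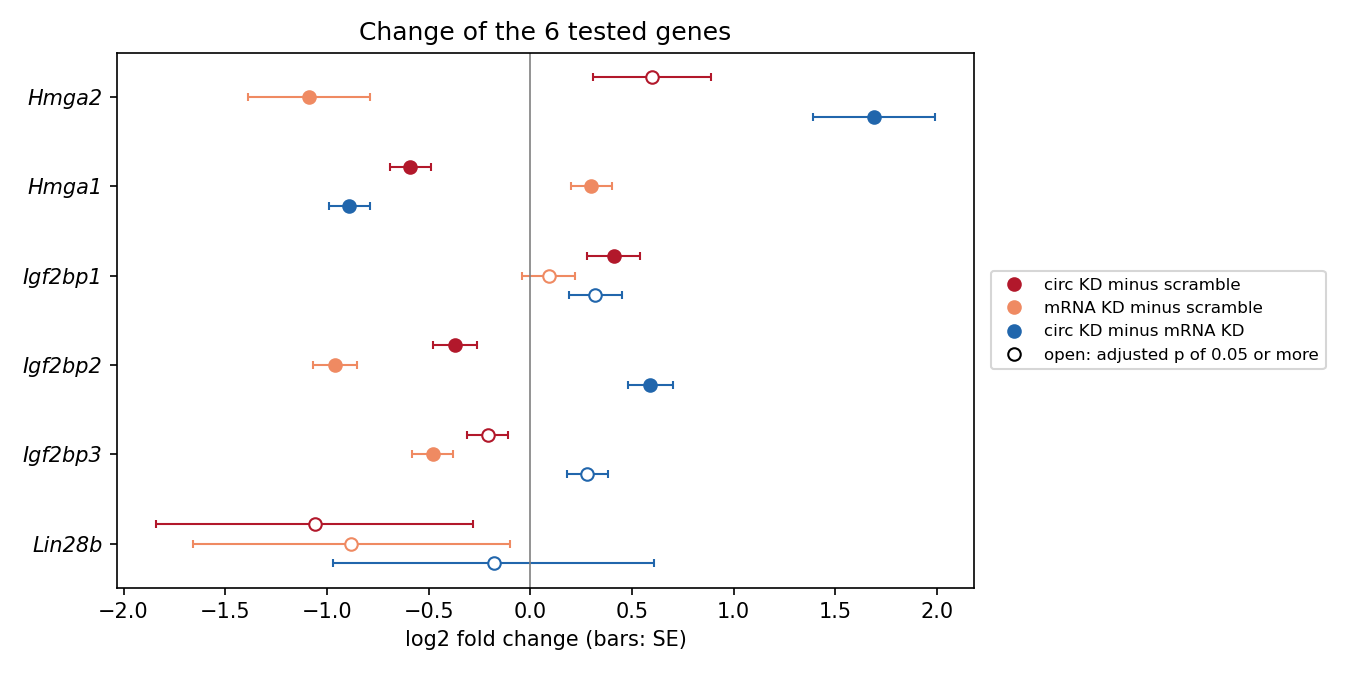
Log2 fold change of the 6 tested genes (points, with SE) in circ-KD cells against scramble, mRNA-KD cells against scramble and circ-KD cells against mRNA-KD cells; open points have an adjusted p of 0.05 or more. Hmga2 (1.69) and Hmga1 (-0.89) lie on opposite sides of 0 in the direct comparison, and the error bars of Lin28b are the widest.

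The other genes with let-7 sites give the wider setting. Among 13229 tested genes with an annotated 3′ UTR, without the 8, 173 held CTACCTC at least 2 times, 1248 held it once and 11808 did not hold it. In circ-KD cells against mRNA-KD cells, 58 of the 173 were higher and 12 lower (40.5% called, median log2 fold change 0.14), against 1971 higher and 1666 lower of those without the site (30.8% called, median 0.00). In mRNA-KD cells against scramble 18 of the 173 were higher and 37 lower (31.8% called, median -0.10), against 1218 higher and 1260 lower of those without the site (21% called, median 0.00). In circ-KD cells against scramble 46 were higher and 27 lower (42.2% called, median 0.03), against 1989 higher and 1729 lower of those without the site (31.5% called, median 0.00). Genes with more sites have longer 3′ UTRs, and no test of these counts was made.

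Of 24 other genes known as let-7 targets, 8 were higher and 4 lower in circ-KD cells than in mRNA-KD cells (median log2 fold change 0.12). That is 50% called, beside 26.1% of all genes. Against scramble 3 were higher and 6 lower in each knockdown (medians -0.07 in circ-KD cells and -0.12 in mRNA-KD cells). The share called was 37.5% in each, beside 27.1% of all genes in circ-KD cells and 18.0% in mRNA-KD cells. Nras, a small GTPase, averaged 147.0 ± 6.51 CPM in circ-KD cells and 116.4 ± 6.58 CPM in mRNA-KD cells, against 198.4 ± 3.5 CPM in scramble (log2 fold change -0.43 ± 0.07, adjusted p = 0.00075, and -0.77 ± 0.07, 1.98e-05). Tgfbr1, a TGF-beta receptor, averaged 228.2 ± 22.8 CPM in circ-KD cells against 121.2 ± 3.8 CPM in scramble (0.91 ± 0.08, adjusted p = 7.16e-06). In mRNA-KD cells Tgfbr1 averaged 151.7 ± 7.34 CPM (0.32 ± 0.08, adjusted p = 0.0169), a call that ended in 4 of 18 alternatives. Thbs1, a matrix glycoprotein, averaged 19.1 ± 2.92 CPM in circ-KD cells against 9.33 ± 0.525 CPM in scramble (1.03 ± 0.17, adjusted p = 0.000715). Of these calls in circ-KD cells, that of Nras ended with Xist as a covariate (-0.41, adjusted p = 0.0941).

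Of 18 genes of let-7 processing, uridylation and loading, 2 were higher and 4 lower in circ-KD cells than in scramble. In mRNA-KD cells 2 were higher than in scramble (Hnrnpa1 and Tut4) and 3 lower. Uridylation genes such as Tut4 are counted with the processing genes, so these counts give no direction for let-7. The shares called, 33.3% and 27.8%, stand beside 27.1% and 18.0% of all genes. Ago2, the slicing Argonaute protein, stood at 199.2, 169.3 and 155.4 CPM in circ-KD cells and at 71.1, 73.0 and 85.0 CPM in mRNA-KD cells, against 55.8, 65.5 and 72.3 CPM in scramble. All circ-KD libraries lay above the rest (log2 fold change 1.43 ± 0.12 against scramble, adjusted p = 2.96e-06, and 1.19 ± 0.12 against mRNA-KD cells, 1.74e-05), while mRNA-KD cells overlapped with scramble (0.24 ± 0.12, 0.167). Ago1, a paralog without slicing activity, fell to 494.1 ± 29.4 CPM in circ-KD cells, against 698.5 ± 19.1 CPM in scramble (-0.50 ± 0.07, adjusted p = 0.000275). In mRNA-KD cells Ago1 fell as well, to 559.1 ± 24.7 CPM (-0.32 ± 0.07, adjusted p = 0.00871). Drosha, the nuclear nuclease that cuts primary microRNAs, fell to 140.5 ± 9.95 CPM in circ-KD cells, against 191.2 ± 3.5 CPM in scramble (-0.44 ± 0.08, adjusted p = 0.00109). Ddx17, a helicase of the Drosha complex, fell to 529.1 ± 34.1 CPM in mRNA-KD cells, against 724.9 ± 7.34 CPM in scramble (-0.45 ± 0.07, adjusted p = 0.000951). With Xist as a covariate the calls of Ago1 (adjusted p = 0.0909) and Drosha (0.164) in circ-KD cells ended, as did that of Ddx17 (0.0871). That of Ago2 did not (at most 0.000408 over all alternatives). The call of Ago1 in mRNA-KD cells ended in 2 of 18 alternatives, with Xist as a covariate and without scramble replicate 2. Of 5 host transcripts of let-7 and miR-125, 2 matched the table by symbol. Mir99ahg, which hosts let-7c and miR-125b genes, averaged 8.59 ± 1.84 CPM in circ-KD cells against 16.0 ± 1.58 CPM in scramble (-0.89 ± 0.19, adjusted p = 0.00331; 0.0811 with Xist as a covariate), and Huwe1, host of let-7f-2 and miR-98, averaged 681.8 ± 61.4 CPM in circ-KD cells and 690.5 ± 22 CPM in scramble (-0.02 ± 0.08, adjusted p = 0.892).

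The insulin-like growth factor axis, with the Plag transcription factors that are known to act on it, differed between the knockdowns in most of its tested genes: 7 of 13 tested genes were higher and 2 lower in circ-KD cells than in mRNA-KD cells (69.2% called, beside 26.1% of all genes; median log2 fold change 0.40, beside -0.02). Against scramble 3 were higher and 1 lower in circ-KD cells (30.8% called, near the 27.1% of all genes) and 3 higher and 5 lower in mRNA-KD cells (61.5%, beside 18.0%). Igf1r, Insr and Plagl2, called higher in circ-KD cells than in mRNA-KD cells, are also counted among the let-7 targets above, so these lists are not independent. Plagl2 stood at 88.3, 83.2 and 81.0 CPM in circ-KD cells and at 40.3, 35.5 and 41.0 CPM in mRNA-KD cells, against 52.5, 78.3 and 72.6 CPM in scramble. It was lowest in mRNA-KD cells and highest in circ-KD cells with no overlap, and the log2 fold change between the knockdowns was 1.11 ± 0.13 (adjusted p = 5.21e-05). Igf2r, the receptor that clears Igf2, stood at 174.6, 162.0 and 161.3 CPM in circ-KD cells and at 75.2, 79.1 and 90.5 CPM in mRNA-KD cells, against 116.9, 125.5 and 119.7 CPM in scramble. It rose in circ-KD cells (0.46 ± 0.08, adjusted p = 0.00118) and fell in mRNA-KD cells (-0.56 ± 0.08, 0.000507).

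Plag1, named after its values were seen because it completes the Plag family, was at 13.3 ± 0.701 CPM in circ-KD cells and 7.87 ± 1.1 CPM in mRNA-KD cells (log2 fold change 0.76 ± 0.13, adjusted p = 0.00108). Igfbp5, a binding protein for these growth factors, rose to 77.9 ± 6.11 CPM in circ-KD cells, against 23.9 ± 2.31 CPM in scramble (1.70 ± 0.17, adjusted p = 1.63e-05). In mRNA-KD cells Igfbp5 averaged 35.5 ± 10.7 CPM (0.57 ± 0.17, adjusted p = 0.0369), a call that ended in 9 of 18 alternatives. Igfbp3, another binding protein, rose to 19.7 ± 3.47 CPM in mRNA-KD cells, against 8.33 ± 2.56 CPM in scramble (1.25 ± 0.20, adjusted p = 0.00098), and was at 6.73 ± 0.324 CPM in circ-KD cells. The growth factors themselves, Igf1 and Igf2, did not pass the filter on low counts. Of the calls against scramble, those of Plagl2 (adjusted p = 0.0697) and Igf2r (0.0699) in mRNA-KD cells ended with Xist as a covariate. The differences of Plagl2, Igf2r, Plag1, Igfbp3 and Igfbp5 between the knockdowns held in all 18 alternatives.

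**Figure D4:**
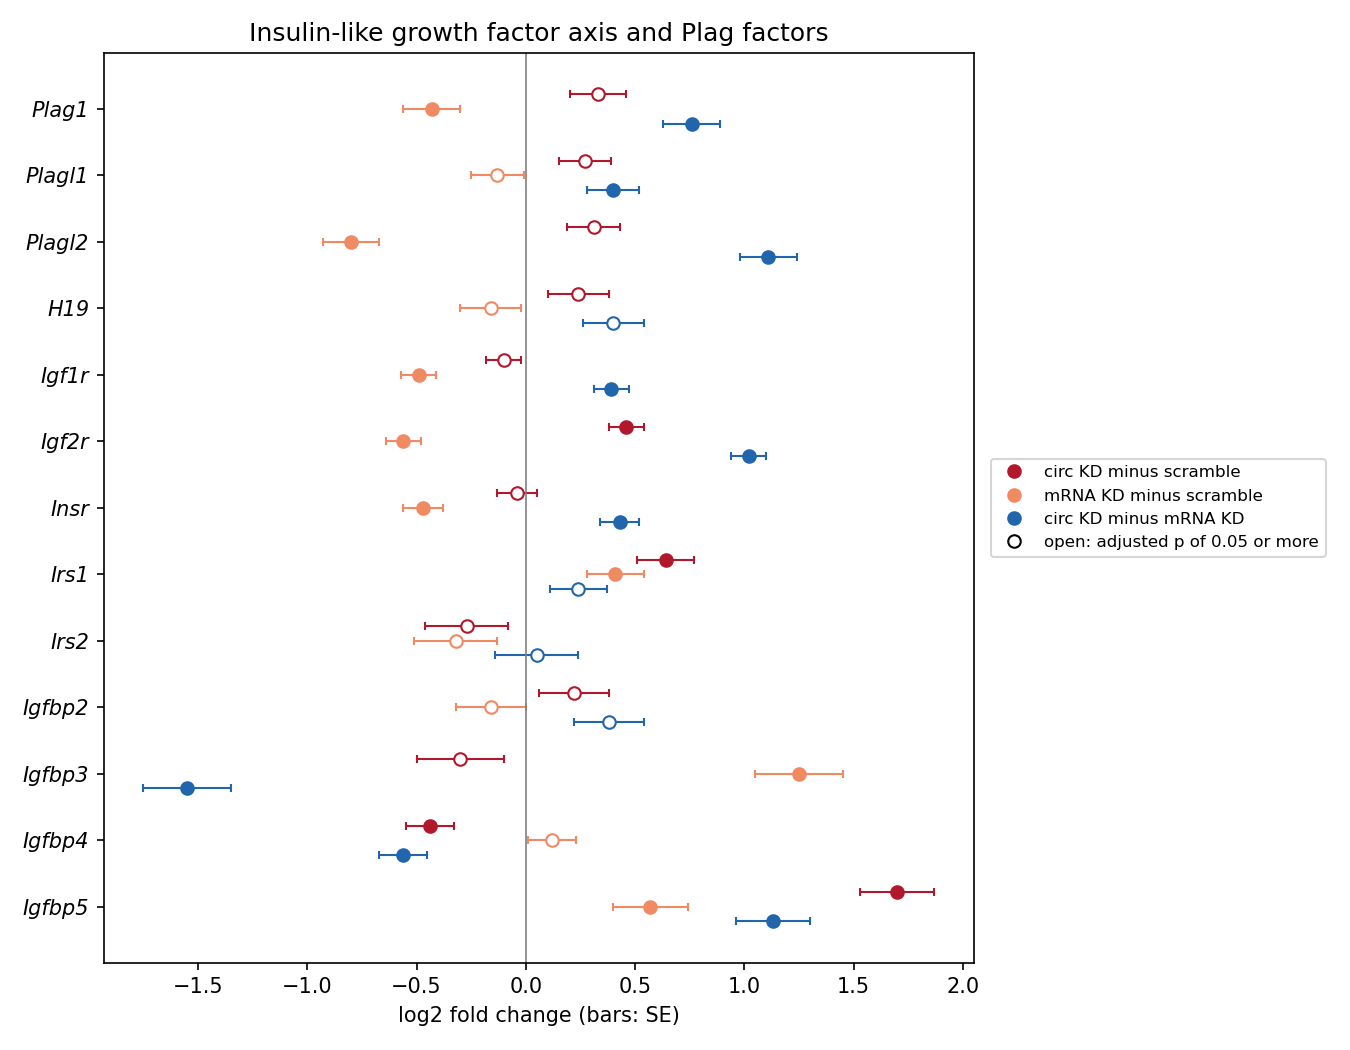
Log2 fold change (points, with SE) of the 13 tested genes of the insulin-like growth factor axis and the Plag factors in circ-KD cells against scramble, mRNA-KD cells against scramble and circ-KD cells against mRNA-KD cells; open points have an adjusted p of 0.05 or more. Igf2r lies above 0 in circ-KD cells (0.46) and below 0 in mRNA-KD cells (-0.56).

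Of 8 partners of the Igf2bp proteins in their ribonucleoprotein particles, 1 was higher and 2 lower in circ-KD cells (37.5% called, beside 27.1% of all genes), and 1 was higher and 1 lower in mRNA-KD cells (25%, beside 18.0%), against scramble. Elavl1 (HuR), a stabilizing RNA-binding protein, fell to 86.1 ± 4.41 CPM in mRNA-KD cells, against 124.8 ± 4.55 CPM in scramble (log2 fold change -0.54 ± 0.08, adjusted p = 0.000376), and was at 128.2 ± 6.97 CPM in circ-KD cells (0.04 ± 0.07, 0.749). Ybx1, a cold shock domain protein, fell to 391.9 ± 31.6 CPM in circ-KD cells, against 507.5 ± 30.9 CPM in scramble (-0.37 ± 0.08, adjusted p = 0.00406; 0.115 with Xist as a covariate). Of 14 genes that write, erase or read the N6-methyladenosine mark, which Igf2bp proteins bind, 2 were higher and none lower in each knockdown against scramble (14.3% called in each, below the 27.1% and 18.0% of all genes). Virma, a subunit of the methyltransferase complex, rose to 122.2 ± 4.76 CPM in circ-KD cells, against 91.0 ± 3.29 CPM in scramble (0.42 ± 0.07, adjusted p = 0.00101; 0.0615 with Xist as a covariate). In mRNA-KD cells Virma averaged 108.7 ± 6.29 CPM (0.26 ± 0.07, adjusted p = 0.031), a call that ended in 9 of 18 alternatives.

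High mobility group genes of the Hmgb and Hmgn families, which lack the AT-hook design of Hmga1, and TRIM-NHL relatives of Trim71 showed these values. Hmga2, the AT-hook relative of Hmga1, was higher in circ-KD cells than in mRNA-KD cells (log2 fold change 1.69). Of 7 other high mobility group genes, none was higher and 4 were lower in circ-KD cells than in mRNA-KD cells (median log2 fold change -0.34). That is 57.1% called, beside 26.1% of all genes. Against scramble 2 were lower and none higher in circ-KD cells (28.6%, near the 27.1% of all genes). In mRNA-KD cells 3 were higher than in scramble and none lower (42.9%, beside 18.0%). Hmgn5, a nucleosome-binding protein, averaged 30.1 ± 5.75 CPM in circ-KD cells and 59.9 ± 8.81 CPM in mRNA-KD cells (-0.99 ± 0.15, adjusted p = 0.000334), against 55.8 ± 6.07 CPM in scramble. Hmgb2, a DNA-bending protein of proliferating cells, averaged 206.5 ± 16.8 CPM in circ-KD cells and 383.6 ± 102.4 CPM in mRNA-KD cells (-0.89 ± 0.18, adjusted p = 0.0031). Both differences between the knockdowns held in all 18 alternatives. Of 3 TRIM-NHL relatives of Trim71, Trim32 was lower in mRNA-KD cells, at 85.9 ± 4.98 CPM, against 106.5 ± 3.29 CPM in scramble (-0.31 ± 0.07, adjusted p = 0.00984; 0.123 with Xist as a covariate). Cdkn2a and Cdkn2b, cell cycle inhibitors that Hmga2 is known to repress in mouse neural stem cells, did not pass the filter on low counts. Of the 5 related inhibitors that did, 1 was lower in circ-KD cells (Cdkn2c, log2 fold change -0.70) and 1 was higher in mRNA-KD cells (Cdkn1a, 1.39), against scramble. That is 20% called in each, below the 27.1% and near the 18.0% of all genes. The call of Cdkn2c ended in 4 of 18 alternatives and that of Cdkn1a in 6.

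Genes of late progenitors and gliogenesis, the stage at which Lin28 and Hmga2 are known to be low, were set beside the list. In circ-KD cells 10 of 15 tested genes were higher and none lower than in scramble (66.7% called, beside 27.1% of all genes; median log2 fold change 0.75), and in mRNA-KD cells 6 were higher and none lower (40%, beside 18.0%; median 0.41). Zbtb20, a zinc finger factor of late progenitors and astrocytes, lay below all scramble libraries in circ-KD cells but did not pass the threshold (-0.49 ± 0.18, adjusted p = 0.0592); it is named after its values were seen. Tnc, the matrix protein tenascin C, stood at 457.3, 449.9 and 471.7 CPM in circ-KD cells and at 53.6, 52.4 and 85.4 CPM in mRNA-KD cells, against 41.1, 48.1 and 22.3 CPM in scramble. All circ-KD libraries lay far above both other groups (3.63 ± 0.25 against scramble, adjusted p = 8.53e-07). Aldoc, a glycolytic enzyme of radial glia and astrocytes, rose to 164.0 ± 11.7 CPM in circ-KD cells, against 59.7 ± 9.62 CPM in scramble (1.46 ± 0.13, adjusted p = 4.8e-06). These calls of Tnc and Aldoc in circ-KD cells held in all 18 alternatives. Both genes were also called higher in mRNA-KD cells than in scramble (log2 fold change 0.78 for Tnc and 0.50 for Aldoc). Those calls ended in 7 and 3 of 18 alternatives.

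Markers of the cell types of the sorted tissue were summed in each library. Radial glia markers summed over 9 genes to 1386 to 1522 CPM in circ-KD cells and 913.4 to 1176 CPM in mRNA-KD cells, against 833.5 to 1091 CPM in scramble. Of the 9, 6 were higher and none lower in circ-KD cells against scramble (66.7% called, beside 27.1% of all genes). Basal progenitor markers (7 genes) summed to 1096 to 1355, 1373 to 1436 and 1388 to 1529 CPM and neuronal markers (10 genes) to 5769 to 6032, 5260 to 5787 and 6120 to 7171 CPM in circ-KD cells, mRNA-KD cells and scramble. Their part in the differences of Hmga2, Igf2bp1 and Igf2bp2 was not tested. Markers of other cells summed to at most 26.1 CPM in any library, but some differed between the groups. Microglia markers (8 genes) summed to 6.08 to 10.8 CPM in circ-KD cells and 3.07 to 8.04 CPM in mRNA-KD cells, against 2.41 to 4.11 CPM in scramble. Of the 6 tested, only C1qa, a complement subunit of microglia, was called in circ-KD cells against scramble (higher, 1.77 ± 0.46, adjusted p = 0.0123). That is 16.7% called, below the 27.1% of all genes. Erythroid markers (8 genes) summed to 9.01 to 26.1 CPM in circ-KD cells and 6.39 to 6.59 CPM in mRNA-KD cells, against 9.2 to 14.8 CPM in scramble. Markers of ventral inhibitory neurons (7 genes) summed to 1.72 to 2.77, 3.16 to 4.8 and 3.2 to 6.98 CPM and those of endothelial cells (7 genes) to 0.604 to 1.52, 0.865 to 1.22 and 1.56 to 4.23 CPM in circ-KD cells, mRNA-KD cells and scramble. Pericyte markers (5 genes) reached 5.9 CPM and those of meningeal fibroblasts (7 genes) 1.82 CPM, and no marker was at 0 in all libraries. The part of these cells in the differences of the listed genes was not tested.

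Some genes of the table followed a gene of the list closely over the 9 libraries, as the root mean square distance between profiles scaled to mean 0 and SD 1, where 0 would be identical. For Hmga1 these were its copy Hmga1b (0.0488) and Rnaseh2c (0.166), a ribonuclease H2 subunit. For Igf2bp1 they were Lypd1 (0.133) and Plod2 (0.182), for Hmga2 Gpn2 (0.217) and Eif1ad (0.226), and for Igf2bp2 Nfyc (0.233) and Sez6l (0.239). The nearest profiles to Igf2bp3 were those of Grk5 (0.256) and Mtdh (0.313), and to Lin28b those of Ngfr (0.285) and Zfyve21 (0.414). With 11788 or 11789 genes searched for each, a near profile is easily found, and no test was made.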

How the data were processed

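The deposited table gives the authors' raw counts of reads for 53379 Ensembl gene IDs in 9 libraries; 0 columns were left unused. The submitters' processing notes list STAR 2.4.2a, DESeq2, bcl2fastq 2.17.1.14 and mm10, with no role or order. For the counting program, its strand setting and the annotation release nothing is given in the sources used here. IDs were joined to GENCODE M21 (GRCm38, the assembly of mm10); 53274 had a symbol. The 8 genes and all lists were chosen with earlier results of these data known.

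Genes passing filterByExpr (minimum count 10, by group; 17760 genes) were scaled by TMM, and a model with a mean for each group (9 libraries, residual degrees of freedom 6) was tested with the quasi-likelihood test of edgeR 4.0.16 (R 4.3.3) and Benjamini-Hochberg adjustment. SE is the log2 fold change over the square root of F. Biological variation common to all genes had a coefficient of 13.9%. Floors of 3 counts cover counting error only. The script was tested on simulated data. Named are all 8 genes, for each comparison with scramble up to 3 genes per list with the smallest p, and the 2 most alike profiles per gene; others are marked as chosen after their values were seen or belong to a list described. Not every gene the rule names is printed. Alternatives were RLE and upper-quartile factors, no filter, at least 1 CPM in 3 libraries, DESeq2 1.42.0, limma-voom (limma 3.58.1), only the 6 libraries compared, a replicate block, log2(Xist CPM + 0.05) as a covariate, and leaving out each library. Nothing in the labels names shared litters or days.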

Additional observations from a re-analysis of the deposited data

How the results depend on the processing

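The range of results over 18 alternatives was as follows. The calls of Hmga1, Hmga2 and Igf2bp2 between the knockdowns, of Hmga1 in circ-KD cells and of Igf2bp2 in mRNA-KD cells held in all 18. With Xist as a covariate the genes called were 1201 in circ-KD cells against scramble (65.8% of them higher, 52.1% without the covariate) and 731 in mRNA-KD cells against scramble (61.6%, beside 49.5%), and 1 of the 6 tested genes was called in each. Between the knockdowns 4285 genes passed, 3 of the 6 among them. Since Xist separates circ-KD cells from scramble, this fit has little left to estimate there. Without a filter 5 of the 8 genes were called in circ-KD cells against scramble, with Trim71 among them (adjusted p = 0.0301), and 5 in the direct comparison. These calls carry little weight, since that fit gave far smaller adjusted p at like fold changes. For Hmga2 in circ-KD cells against scramble (0.60 in both fits) the adjusted p was 1.44e-05 without the filter and 0.149 with it. Upper-quartile factors shifted the median of all genes by less than 0.1 but moved the share of higher calls to 42.3% in circ-KD cells against scramble and to 42.1% in the direct comparison (52.8% in TMM). Leaving out 1 library gave 3386 to 5548 genes and 1 to 4 of the 6 in circ-KD cells against scramble, 1760 (without scramble replicate 2) to 3083 genes and 2 to 3 of the 6 in mRNA-KD cells against scramble, and 3059 (without circ-KD replicate 1) to 4610 genes and 3 to 5 of the 6 in the direct comparison. Sign changes were seen for Lin28b over the fits that leave out 1 library (-1.82 to 0.10 in circ-KD cells and -1.37 to 0.27 in mRNA-KD cells against scramble, both positive without scramble replicate 3, and -0.92 to 0.27 in the direct comparison, positive without circ-KD replicate 3 at 0.27 or mRNA-KD replicate 1 at 0.25) and for Igf2bp1 in mRNA-KD cells (-0.04 with the Xist covariate, -0.01 if mRNA-KD replicate 1 and -0.02 if scramble replicate 1 was left out, up to 0.20 if scramble replicate 3 was). The cause was not tested. Deviations of same-numbered libraries of different groups had correlations of -0.141 to 0.115 in 9 pairs, 1 above 0.1. Between circ-KD and mRNA-KD cells these were 0.0828, 0.0815 and 0.115, and libraries with different numbers had -0.0705 to -0.028. Since deviations were taken from group means, positive values for same numbers bring negative ones for different numbers. Against scramble, libraries with different numbers reached 0.177 (mRNA-KD replicate 1 with scramble replicate 3). Whether the numbers pair the libraries is thus not settled. With the replicate block 4412, 2713 and 4189 genes were called, among them 2, 4 and 3 of the 6, and the call of Igf2bp1 in circ-KD cells ended (0.40, adjusted p = 0.0659). Of 81 calls of the other named genes, 39 held in every alternative and 36 ended with the Xist covariate, 20 of them with it alone. Lin28a and Trim71 were too low to pass the filter on low counts, and absence and limited depth cannot be told apart there. The spread between libraries limits Lin28b.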
